A study of Mus musculus with 6 samples.

Results

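The genes described here encode the proteins of the cytosolic ribosome. They were taken from the count table as protein-coding mouse genes whose symbol is Rps or Rpl with a number, together with Rpsa, Rplp0, Rplp1 and Rplp2 and without the Rps6k kinases. This rule gave 82 of the 21965 genes of the table, 32 of the small (40S) subunit and 50 of the large (60S) subunit. Of these, 80 had enough counts to be tested, 32 of the 40S and 48 of the 60S. The exceptions were a pair of rarely used copies, Rpl10l, with 0 counts in every library (an upper limit of 3 counts each), and Rpl39l, with 3 to 10 counts per library.

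The libraries are polyA RNA-seq of interstitial macrophages, which live in the lung tissue and not in the airspace, from C57Bl/6 mice 6 to 8 weeks old. A group of 3 libraries came from mice given 1 mg of WGP, the β-glucan of this study, into the peritoneum over 6 days, and 3 came from mice given PBS in the same way. Lungs were taken on day 7 and the macrophages were isolated from digested tissue with labelled antibodies, which are not named. The titles of both groups also carry the word Control, which is not explained. No genotype other than the strain is given, and it is not stated if each library is 1 mouse or several pooled, so p-values measure only the spread between these libraries. The series asks whether β-glucan trains lung interstitial macrophages against metastasis, and the comparison of WGP with PBS is the only one these libraries allow.

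As background, nearly every ribosomal protein is built into the ribosome in 1 copy, so the cell makes these proteins in matched amounts, from scattered genes whose mRNAs are short and among the most abundant. Their mRNAs belong to the TOP class: they start with a C followed by a run of pyrimidines (C or T in the gene), and through this start their translation follows the mTORC1 kinase and the binding protein LARP1. Transcript levels therefore describe only a part of how much protein is made, and no protein was measured here.

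Totals ran from 18254678 to 20346517 counts per library. All 17 listed interstitial macrophage markers were detected, with a summed level of 9030 to 10200 CPM (counts scaled to library size with TMM factors) in PBS and 7280 to 8530 in WGP, and none at 0. The list was split at an adjusted p under 0.05. Cx3cr1, Csf1r and Fcgr1 were higher with WGP (3, 17.6%, beside 15.2% of all genes tested). Mertk, Mrc1, Tmem119, Ms4a7 and Apoe were lower (5, 29.4%, beside 15.7%). Their list ran from -3.01 to 1.03 in log2 fold change, WGP over PBS, with a median of -0.63. Markers of other cells differed between the groups. The 15 alveolar macrophage markers summed to 5620 to 8700 CPM in PBS and 1370 to 1800 in WGP, and the 10 classical monocyte markers to 8240 to 9220 and 12000 to 15200. Chil3 is on both lists and fell (3478 to 751 CPM in the mean), and without it the monocyte markers summed to 4850 to 5600 and 11200 to 14500. Markers of epithelium (354 to 727 against 96.8 to 146), endothelium (314 to 337 against 97.7 to 118), fibroblasts (107 to 144 against 24.1 to 81.0), dendritic cells (353 to 441 against 149 to 213), T and NK cells (181 to 285 against 31.3 to 131) and B cells (140.4 to 163 against 77.9 to 133) had lower sums with WGP. Of the T and NK markers 2 of 14 tested fell, and of the B cell markers 1 of 8, Cd22 (74.2 to 33.5 CPM in the mean), with a median log2 fold change of -0.05 and 4 of the 8 above 0. Neutrophil markers overlapped (1270 to 2810 against 1600 to 3130), and so did erythroid and platelet markers (235 to 335 against 162 to 402). No listed marker was at 0 in all libraries, and the part of these cells in the values below was not tested. Fewer cells of a type and less RNA per cell cannot be told apart in bulk RNA. Summed over 4 Y-linked genes, every PBS library lay below every WGP library, so this level goes with the treatment. PBS library 3 stood apart with 9.79 CPM, against 112 and 179 in the other PBS libraries and 205 to 227 with WGP.

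Promoter sequences show what the members share and where they differ. RefSeq promoters of GRCm38.p6, 250 bases before to 50 after each start, were found for 62 of the 82 members and for 16522 protein-coding genes in all. A run of at least 8 pyrimidines on the coding strand within 50 bases of the start was present in 52 of 62 members (83.9%), in 18 of 24 of the 40S and 34 of 38 of the 60S (89.5%), against 34.6% of all promoters. A C exactly at the annotated start with at least 4 pyrimidines after it was present in 12 of 62 members (19.4%) and in 2.23% of all promoters. Of these 12 genes, the 5 below rose with WGP (adjusted p under 0.05, as did 33.8% of all members tested and 15.2% of all genes tested). Each is shown 5′ to 3′ from 60 bases before the start, with capitals for the longest pyrimidine run, as far as the window shows it, that reaches within 30 bases of the start.
Rpl28: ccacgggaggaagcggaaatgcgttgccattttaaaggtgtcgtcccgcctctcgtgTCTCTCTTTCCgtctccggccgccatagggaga
Rpl35: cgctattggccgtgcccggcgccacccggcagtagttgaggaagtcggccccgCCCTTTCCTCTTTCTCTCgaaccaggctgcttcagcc
Rps10: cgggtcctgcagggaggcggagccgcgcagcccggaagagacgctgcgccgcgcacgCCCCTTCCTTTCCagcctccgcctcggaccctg
Rps18: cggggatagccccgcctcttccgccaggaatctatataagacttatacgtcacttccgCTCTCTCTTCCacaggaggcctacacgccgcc
Rps6: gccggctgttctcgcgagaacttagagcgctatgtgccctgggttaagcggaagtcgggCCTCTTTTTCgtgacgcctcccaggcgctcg

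The windows are Rpl28 chr7:4792905-4792994 (plus strand), Rpl35 chr2:39005102-39005191 (minus strand), Rps10 chr17:27635215-27635304 (minus strand), Rps18 chr17:33955636-33955725 (minus strand) and Rps6 chr4:86857338-86857427 (minus strand). In all 5 the run covers the start, as the choice requires. The other 7 members with such a start, Rpl14, Rpl15, Rpl38, Rplp2, Rps15a, Rps21 and Rps27, did not pass the test. The next 5 windows belong to members that passed the test when each library was scaled to its own ribosomal protein counts, Rpsa and Rplp0 as higher and Rps2, Rpl12 and Rpl14 as lower. Rplp1, which also passed, has no entry.
Rpsa: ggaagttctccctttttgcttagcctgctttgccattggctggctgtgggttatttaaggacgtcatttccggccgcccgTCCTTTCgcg
Rplp0: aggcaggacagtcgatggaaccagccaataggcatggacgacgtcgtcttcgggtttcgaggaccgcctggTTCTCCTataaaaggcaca
Rps2: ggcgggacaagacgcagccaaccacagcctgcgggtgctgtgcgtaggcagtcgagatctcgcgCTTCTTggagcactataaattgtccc
Rpl12: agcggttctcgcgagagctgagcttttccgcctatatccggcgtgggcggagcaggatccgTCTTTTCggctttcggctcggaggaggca
Rpl14: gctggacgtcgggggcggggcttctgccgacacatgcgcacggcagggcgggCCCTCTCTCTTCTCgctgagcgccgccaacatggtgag

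Their windows are Rpsa chr9:120127706-120127795 (plus strand), Rplp0 chr5:115559407-115559496 (plus strand), Rps2 chr17:24720003-24720092 (plus strand), Rpl12 chr2:32961652-32961741 (plus strand) and Rpl14 chr9:120571457-120571546 (plus strand). Followed to its full length, the longest pyrimidine run that reached within 30 bases of the start had 14 bases in Rpl14, where it covers the start. It had 7 bases in Rpsa, Rplp0 and Rpl12 and 8 in Rps2, where it runs on past the last base shown. A run of at least 8 bases reaching there was present in 43 of 62 members (69.4%) and in 26.5% of all promoters. Rpsa holds a run of 12 bases farther out, from 55 bases before the start. In Rps7, Rps9 and Rpl19, which rose and are not printed, the longest run had 13, 9 and 11 bases. Of other motifs searched on both strands over the whole promoter, CCGGAAG, the letters bound by ETS-family factors such as GABP, was in 24 of 62 members (38.7%) and 12.4% of all promoters. GGGCGG, an Sp1 motif, was in 37 members (59.7%) and 48.3% of all. AAGATGG, the YY1 motif, was in 8 (12.9%) and 6.47% of all. CACGTG, the E-box bound by MYC, was in 5 (8.06%) and 8.1% of all, and the TATA-box letters TATAAA were in 5 (8.06%) and 12.9%. Matches of letters are not binding sites, and the annotated start may lie a few bases from the one these cells use.

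Ribosomal protein transcripts were slightly higher after WGP, by a small and similar amount in both subunits, under TMM and the other scalings to all genes; scaled to their own sum, their medians were by construction near 0 (-0.0013 and -0.0274). Of the 80 members tested, 27 rose (33.8%) by the quasi-likelihood test of edgeR, with p-values adjusted by Benjamini-Hochberg across 12305 genes, against 15.2% of all genes tested that rose. The count of members that fell was 0, against 15.7% of all genes. It was also 0 at an unadjusted p under 0.05, by DESeq2 and by limma-voom. The median log2 fold change, WGP over PBS, was 0.16 (1.12-fold) with quartiles of 0.096 and 0.23, beside -0.021 for all genes, and it ranged from -0.14 to 0.42. The 3 WGP libraries lay above all 3 PBS libraries for 52 members (23.2% of all genes) and below them for 2, Rps2 and Rplp1 (24.9%), and 26 members overlapped.

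The changes were small. The 95% interval of the log2 fold change lay within -1 and 1 for all 80 members, against 64.1% of all genes, and within -0.5 and 0.5 for 76. The exceptions to the narrower bound were Rpsa, Rpl36al and Rplp0, whose intervals reach above 0.5, and the rare Rpl3l, with an interval of -0.70 to 0.90. For comparison, 31.0% of all genes changed in either direction, and the quartiles of all genes were -0.45 and 0.23. The median SD of log2 CPM within groups was 0.071 for the members and 0.182 for all genes. The shares of all genes given here were not matched to the members for level or spread.

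**Figure D1:**
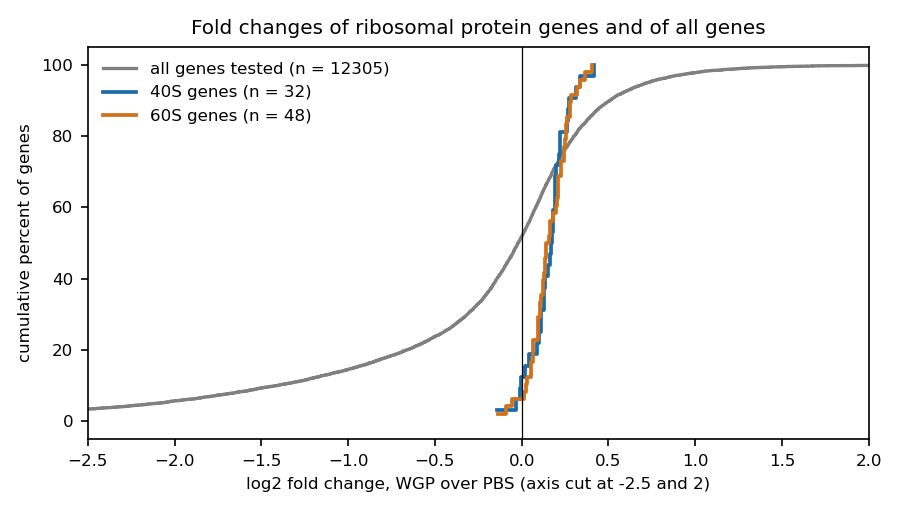
Cumulative percent of genes (vertical axis) with a log2 fold change, WGP over PBS (horizontal axis), up to each value, for 32 genes of the 40S, 48 of the 60S and all 12305 genes tested. The curves of the subunits lie on each other between -0.14 and 0.42, and the curve of all genes spreads far wider with its median at -0.021.

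The number of calls depended on single libraries and on scaling. Without PBS library 1, 2 or 3 the test called 7, 9 and 35 members higher, and without WGP library 1, 2 or 3 it called 13, 25 and 10. Of all genes, it called 1202, 1477 and 1736 higher without PBS library 1, 2 or 3. Without WGP library 1, 2 or 3 it called 1631, 1753 and 1407, against 1874 with all libraries. Without PBS library 3, which was the lowest in Y-linked genes, the medians were 0.21 for the 40S and 0.20 for the 60S. Upper quartile scaling gave 10 and library sizes alone gave 6 higher and 2 lower (Rplp1 and Rps2), with all-gene medians of -0.081 and -0.12. Of all genes, upper quartile scaling called 1468 higher and scaling to library sizes alone 1236. Such a scaling moves all genes alike, so the distance of the subunit medians from the all-gene median (0.195 for the 40S and 0.168 for the 60S by TMM) cannot change with it by more than rounding. Members had a median transcript length of 705 bases, against 2798 for all genes tested. With length and GC trends of each library removed, 8 members were higher and 1 lower (Rplp1), and the medians fell to 0.042 for the 40S and 0.050 for the 60S, against -0.028 for all genes, a distance of 0.070 and 0.079. Of all genes, 1970 were then higher. The share of members called higher lay below that of all genes with these trends removed and with library sizes alone. The same held without PBS library 1 or 2. Apart from the scaling to the ribosomal protein sum described further on, Rpsa, Rplp0, Rps7, Rps9 and Rpl19 were called under all 20 alternative analyses (other scalings, filters, tests, covariates and left-out libraries) and Rpl18 under 19. On that added scaling only Rpsa and Rplp0 of these 6 were called.

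The subunits had similar values. Of the 32 genes of the 40S, 10 rose (31.2%), with a median log2 fold change of 0.17, and 21 had all WGP libraries above all PBS libraries. Of the 48 of the 60S, 17 rose (35.4%), with a median of 0.15, and 31 had no overlap in that direction. Within each subunit 1 gene lay below in every WGP library, Rps2 and Rplp1, both by a narrow margin. The difference between the subunit medians was not tested, and its order turned in several alternative analyses, among them the removal of length and GC trends.

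Summed over all members, the level was 28491, 29187 and 30907 CPM in PBS and 33985, 32375 and 33668 with WGP, without overlap and 1.13-fold higher in the mean. The 40S genes summed to 12598, 12984 and 13632 CPM in PBS and to 15010, 14398 and 14777 with WGP, also 1.13-fold. The 60S genes summed to 15893, 16203 and 17274 and to 18975, 17978 and 18891, again 1.13-fold. As a share of raw counts, which no scaling between libraries touches, the members took 3.0%, 2.97% and 3.20% in PBS and 3.32%, 3.15% and 3.18% with WGP. These shares overlapped, with means of 3.06% ± 0.12 and 3.22% ± 0.088 (SD, n = 3 each).

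The 40S share of the ribosomal protein counts was nearly constant. It was 44.2%, 44.5% and 44.1% in the PBS libraries and 44.2%, 44.5% and 43.9% in the WGP libraries. The means of 44.3% ± 0.19 and 44.2% ± 0.29 (SD, n = 3 each) differed by less than the spread. Counted per length of transcript, the 40S share was 47.0% ± 0.22 in PBS and 47.0% ± 0.27 with WGP. PBS library 3 was the highest of its group for 72 of the 80 members and PBS library 1 the lowest for 55, while WGP library 1 was the highest of its group for 44 and WGP library 2 the lowest for 53.

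**Figure D2:**
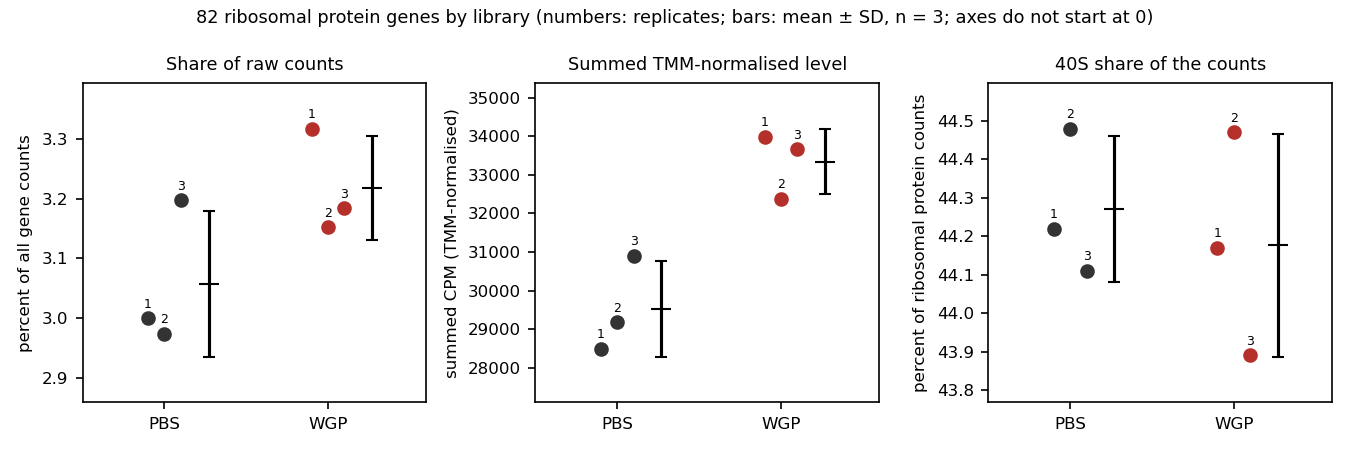
The 82 genes in each of 3 PBS and 3 WGP libraries (points, numbered by replicate) with mean and SD: their percent of all gene counts, their summed TMM-normalised CPM, and the percent of their counts from 40S genes. The summed CPM separates the groups (28491 to 30907 against 32375 to 33985), while both shares overlap. The vertical axes do not start at 0.

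Among the 40S proteins, Rpsa had the highest log2 fold change. It encodes the protein also known as the laminin receptor, which sits near the mRNA exit site of the 40S. Rpsa was at 641, 658 and 694 CPM in PBS and 945, 832 and 886 with WGP, a log2 fold change of 0.42 ± 0.07 (SE, adjusted p = 0.00169). The groups did not overlap, and WGP library 1 was the highest. Rps7, a protein of the 40S whose free form can bind MDM2, was at 249, 239 and 275 CPM in PBS and 318, 322.5 and 324 with WGP (0.34 ± 0.07, adjusted p = 0.00504). Rps9, which lies near the decoding region and affects accuracy, was at 910.1, 923 and 979.9 CPM and at 1151, 1146 and 1192 (0.31 ± 0.07, adjusted p = 0.00492). For both genes every WGP library stood clear of every PBS library, and the WGP libraries lay close to each other.

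Rps10, a 40S head protein that is modified when ribosomes collide, was at 253, 252 and 256 CPM in PBS and 309, 305 and 301 with WGP (0.27 ± 0.06, adjusted p = 0.00844). Rps6, the 40S protein phosphorylated by S6 kinase, was at 361, 380.3 and 384 CPM in PBS and 463, 419.8 and 431 with WGP (0.22 ± 0.07, adjusted p = 0.0311). Rps27a, made as a fusion with ubiquitin, was at 405, 407 and 469 CPM and at 496, 501 and 548 (0.27 ± 0.08, adjusted p = 0.025). The groups were separate for all 3. The other 40S genes that rose were Rps16, Rps18, Rps28 and Rps26, with log2 fold changes of 0.26, 0.22, 0.21 and 0.20. Rps26 had the adjusted p nearest the threshold (0.0473), and just outside it lay Rps14 of the 40S (0.0554) and Rpl7a of the 60S (0.0502). Rps26 passed in only 4 of the 20 alternative analyses.

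By position on the 40S, Rpsa, Rps26 and Rps28, listed near the mRNA exit, rose, with Rps28 at -0.0047 once length and GC trends were removed. Rps14 and Rps25, also listed there, did not pass, with log2 fold changes of 0.19 and 0.11. Neither of the 2 proteins listed at the mRNA entry, Rps2 and Rps3, passed by edgeR, DESeq2 or limma-voom. At an unadjusted p under 0.05, 1 of them did. That list is not complete: it leaves out Rps9 and Fau, which rose, so entry and exit cannot be contrasted from these lists. Rps3, a protein of the entry channel that also acts in DNA repair, had a log2 fold change of 0.16. Rps2 lay on the other side, at 244, 239.8 and 269.6 CPM in PBS and 238, 235 and 209 with WGP (-0.14 ± 0.08, adjusted p = 0.197). Its groups did not overlap, but the lowest PBS library stood only slightly above the highest WGP library. The exons of Rps2 overlap those of the small RNA host gene Snhg9, and with an unstated strand setting their reads cannot be told apart.

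**Figure D3:**
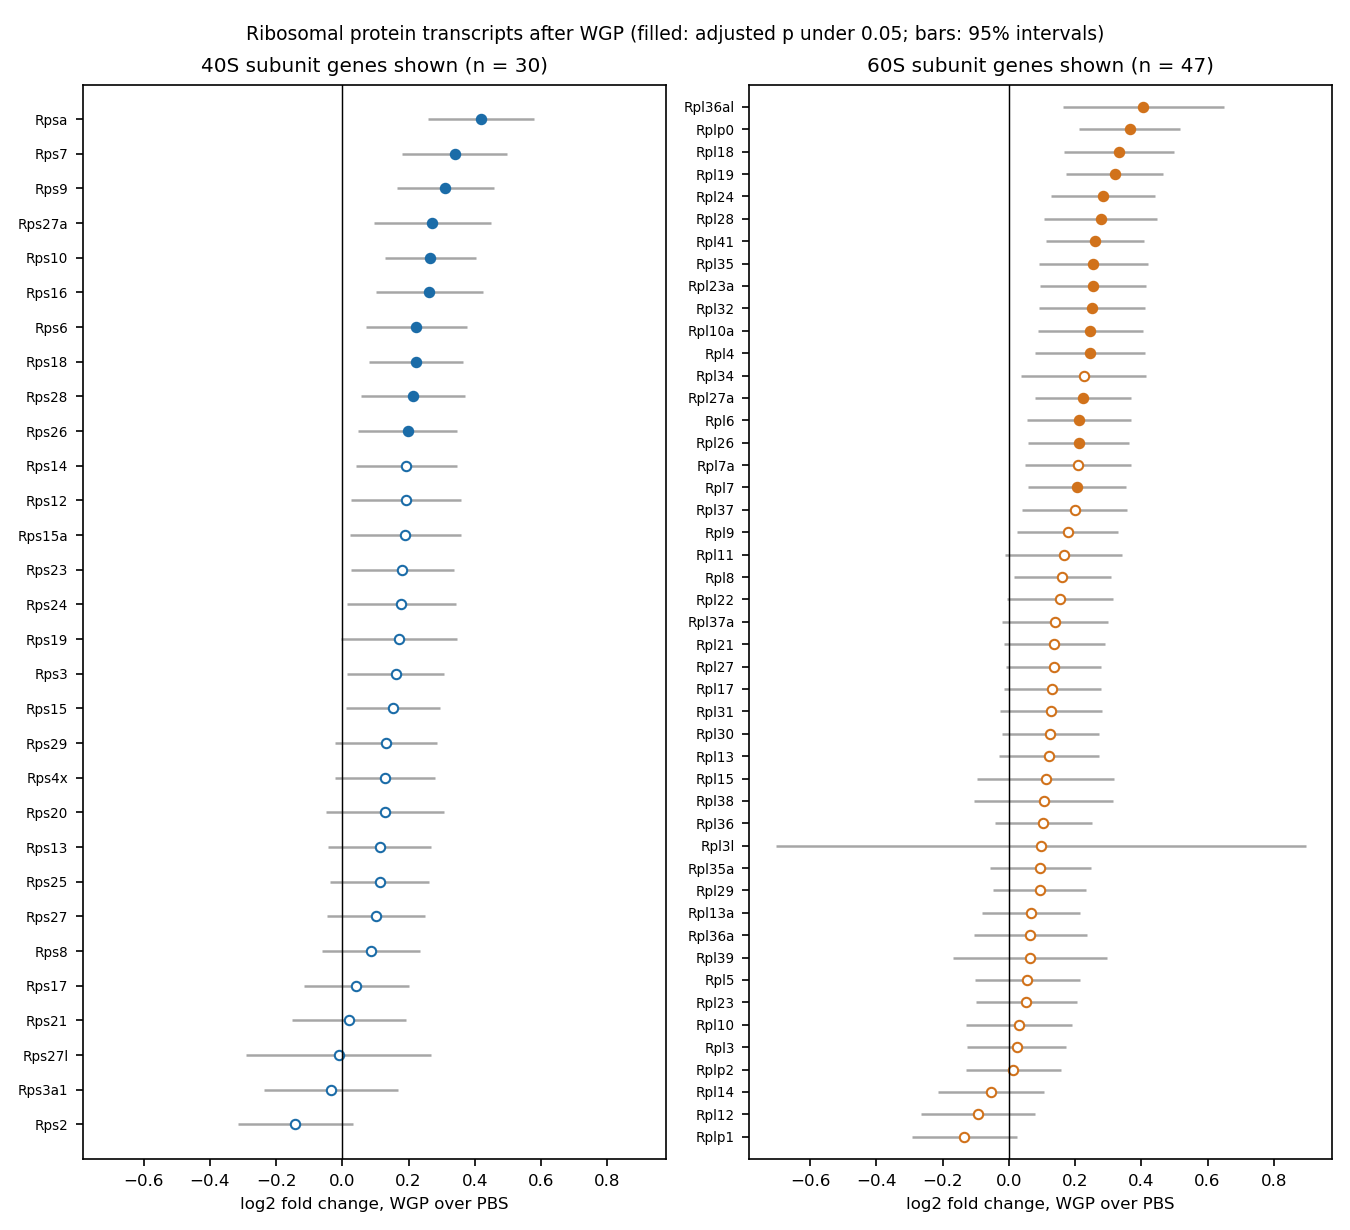
Log2 fold change, WGP over PBS (horizontal axis), of 77 of the 80 tested genes with its 95% interval, 40S genes on the left and 60S genes on the right, filled where the adjusted p was under 0.05. The 10 filled 40S genes and 16 filled 60S genes lie at the upper end of a continuous range, and 6 of the genes shown lie below 0. With each library scaled to its ribosomal protein sum, 43 of the 80 lie below 0.

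In the 60S subunit the gene with the highest log2 fold change was Rpl36al, a copy of Rpl36a that encodes nearly the same protein. It was at 43.7, 47.4 and 55.9 CPM in PBS and 65.2, 59.35 and 70.4 with WGP (0.41 ± 0.11, adjusted p = 0.0173). It was also among the 5 members with the largest spread within groups. Rpl18, a surface protein of the 60S, was at 224, 250.7 and 252 CPM and at 297, 296 and 323 (0.33 ± 0.08, adjusted p = 0.00693). Rpl19, which reaches across to the 40S in an intersubunit bridge, was at 518, 529 and 566 CPM in PBS and 676, 673 and 664 with WGP (0.32 ± 0.07, adjusted p = 0.00439). In Rpl19 the lowest WGP library lay well above the highest PBS library.

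Of the 8 listed proteins at the peptide exit tunnel and its rim, 5 rose (62.5%, beside 33.8% of all members and 15.2% of all genes): Rpl4, Rpl19, Rpl23a, Rpl26 and Rpl35. The median of the 8 was 0.23. Apart from the ribosomal protein sum, Rpl19 passed in all 20 alternative analyses, Rpl4, Rpl23a and Rpl35 in 11 and Rpl26 in 9. Once length and GC trends were removed, only Rpl19 of the 5 was called. Rpl4, which lines the constriction of the tunnel, was at 1124, 1194 and 1257 CPM in PBS and 1496, 1324 and 1417 with WGP (0.25 ± 0.07, adjusted p = 0.0294). Rpl23a, at the rim where signal recognition particle docks, and Rpl35, beside it, had log2 fold changes of 0.25 and 0.26 (adjusted p = 0.0222 and 0.0234). Rpl17, Rpl31 and Rpl39 did not pass, with 0.13, 0.13 and 0.064. Of these 8 genes, 7 had all WGP libraries above all PBS libraries (87.5%, beside 52 of all 80 members and 23.2% of all genes), and Rpl39 overlapped.

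The P stalk, which recruits the elongation factors that hydrolyse GTP, had 1 gene of the 4 listed that rose, and the median of the 4 was -0.04. Rplp0, the base of the stalk, was at 1126, 1187 and 1231 CPM in PBS and 1564, 1455 and 1544 with WGP (0.36 ± 0.07, adjusted p = 0.00265). Its partners Rplp1 and Rplp2, the mobile acidic arms of the stalk, did not pass the test. Rplp1 was at 354.9, 387 and 362 CPM in PBS and 354.5, 318 and 334 with WGP (-0.13 ± 0.07, adjusted p = 0.183). Every WGP library lay below every PBS library, but the nearest ones were almost equal (354.5 against 354.9 CPM). Rplp2 was at 506, 493 and 527 CPM and at 505, 509.5 and 525 (0.013 ± 0.06, adjusted p = 0.897), with full overlap. Rpl12, at the foot of the stalk, was at 264, 261 and 277 CPM and at 270.4, 228 and 254 (-0.093 ± 0.08, adjusted p = 0.396), also overlapping. Rplp0 was the only gene of the 4 stalk genes called by edgeR, DESeq2 or limma-voom.

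Rplp0 is also a late-joining protein of the 60S, added in the cytoplasm as the particle matures. Of the other 2 on that list, Rpl24 rose from 189, 187 and 210.1 CPM to 236, 237 and 241 (0.28 ± 0.07, adjusted p = 0.0113). Rpl10, which completes the site for peptide bond formation, was at 739.7, 800.0 and 827.5 CPM in PBS and 811, 766 and 841.5 with WGP (0.031, adjusted p = 0.784). Its groups overlapped. Rpl5 and Rpl11, which with 5S rRNA form the particle that can bind MDM2 and stabilise p53, had log2 fold changes of 0.055 (adjusted p = 0.597) and 0.17 (adjusted p = 0.144), both with overlap. Neither of these 2 passed by DESeq2 or limma-voom or at an unadjusted p under 0.05. Rpl11 passed without PBS library 3 (0.24, adjusted p = 0.0326).

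Other 60S genes that rose had small changes. Rpl28, Rpl41, Rpl32, Rpl10a, Rpl27a, Rpl6 and Rpl7 had log2 fold changes of 0.28, 0.26, 0.25, 0.25, 0.22, 0.21 and 0.20, with adjusted p from 0.014 (Rpl41, the shortest ribosomal protein) to 0.0443 (Rpl6). Rpl28 was at 442, 471 and 497 CPM in PBS and 601, 526.5 and 581 with WGP, without overlap. Of proteins with known roles outside the ribosome, Rpl13a, a part of the interferon-induced GAIT complex, was at 0.067 (adjusted p = 0.483). Rpl22, which T cell development depends on, was at 0.15 (adjusted p = 0.128), and Rpl38, known for selective translation of Hox mRNAs, at 0.11 (adjusted p = 0.433). Rpl13a and Rpl38 overlapped between the groups and Rpl22 did not.

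Scaling each library to its own ribosomal protein counts shows which members shifted within the set, whatever the total did. This scaling was added after the data were seen, and it centres the set near 0 by construction. On it 2 of the 80 members tested were higher, against 7.43% of all genes, and 5 lower, against 23.6%. Both shares of members lay below those of all genes. The higher ones were Rpsa (0.24 ± 0.06, adjusted p = 0.0154) and Rplp0 (0.19 ± 0.06, adjusted p = 0.0342). Among the lower ones were Rps2 (-0.32 ± 0.08, adjusted p = 0.0114), Rplp1 (-0.31 ± 0.07, adjusted p = 0.00818), Rpl12 (-0.27 ± 0.07, adjusted p = 0.0156) and Rpl14 (-0.23 ± 0.07, adjusted p = 0.029). The lower genes include Rplp1 and Rpl12 of the stalk, while its base Rplp0 is among the higher ones. Rplp2, the other stalk gene listed, did not pass (-0.16, adjusted p = 0.0774), and a pattern over the stalk was not tested. Rps2 and Rpl14 were singled out after their values were seen.

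As shares of the ribosomal protein counts, Rpsa took 2.25%, 2.25% and 2.25% in the PBS libraries and 2.78%, 2.57% and 2.63% with WGP. Rplp0 took 3.95%, 4.07% and 3.98% and then 4.60%, 4.49% and 4.59%. Rplp1 took 1.25%, 1.325% and 1.17% in PBS and 1.04%, 0.982% and 0.991% with WGP. The groups were separate for each of the 3. Rps2 went from 0.857%, 0.822% and 0.872% to 0.6998%, 0.727% and 0.622%, and Rpl12 from 0.925%, 0.895% and 0.897% to 0.796%, 0.703% and 0.754%. Both sets of shares were lower in every WGP library than in any PBS library.

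**Figure D4:**
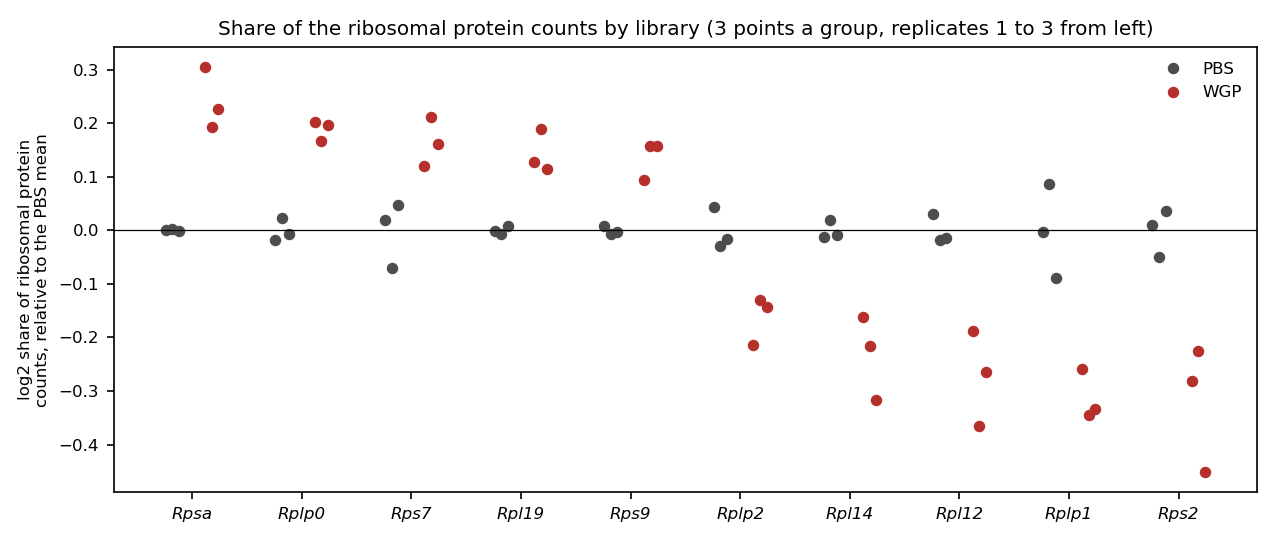
Share of the ribosomal protein counts taken by 10 members in each library, as log2 relative to the PBS mean (vertical axis), with PBS and WGP replicates 1 to 3 from left to right. The WGP points of Rpsa, Rplp0, Rps7, Rpl19 and Rps9 lie above all PBS points and those of Rplp2, Rpl14, Rpl12, Rplp1 and Rps2 below them. The 10 were chosen with their values known, so their separation does not describe the other members. Scaled to the ribosomal protein sum, Rps7, Rpl19, Rps9 and Rplp2 did not pass the edgeR test (adjusted p = 0.088, 0.0997, 0.112 and 0.0774).

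Per kilobase of transcript the members differed far more than they changed. Over all libraries the median was 449 CPM per kb with quartiles of 319 and 708, and it was 532 for the 40S genes and 421 for the 60S. Among the highest were Rps27 at 1814, Rps9 at 1399, Rplp2 at 1214 and Rps15 at 1146 CPM per kb. The lowest were the copies Rpl3l at 2.62 and Rps27l at 58.6, then Rps20 at 88.6, Rpl39 at 89.5 and Rpl5 at 104.5. The transcript taken for Rps20 is long for its family, so its level per kb is uncertain. Ribosomal proteins have many processed pseudogenes, and reads that fit both may be lost or shared in counting, so levels between members are less certain than the same gene compared between groups.

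Variant copies can stand in for their parent proteins in some tissues. Per length of transcript, Rpl36al was at 35.1%, 38.1% and 42.7% of the level of Rpl36a in the PBS libraries and at 45.2%, 46.3% and 56.3% with WGP, without overlap (38.6% ± 3.83 and 49.3% ± 6.1, SD, n = 3 each). Rpl36a itself, an X-linked gene, had a log2 fold change of 0.065 (adjusted p = 0.565). Rps27l, a p53 target and copy of Rps27, stood at 3.37% ± 0.25 of its parent per length in PBS and 3.12% ± 0.51 with WGP, with overlap. Rpl3l, a copy known from muscle, stood at 0.845% ± 0.20 and 0.889% ± 0.30 of Rpl3 per length. Reads of Rpl36al and Rpl36a, which are near-identical, may be assigned to either gene or dropped, which makes their ratio uncertain. Of the 3 variants tested 1 rose, Rpl36al (33.3%, beside 33.8% of all members and 15.2% of all genes). Of the 6 parent genes (Rpl3, Rpl10, Rpl39, Rpl36a, Rps4x and Rps27) 0 passed by edgeR, DESeq2 or limma-voom, and 0 at an unadjusted p under 0.05.

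Grouped in other ways, the members again had small positive medians. The shares called below stand beside 33.8% of all members and 15.2% of all genes tested that rose. The 33 proteins shared with bacteria and archaea had a median log2 fold change of 0.18 with 12 higher (36.4%), and the 47 others 0.14 with 15 higher (31.9%). Of the 11 listed genes mutated in Diamond-Blackfan anaemia, a failure of red cell production, 4 rose (36.4%, about the share of all members): Rps7, Rps10, Rps26 and Rpl26. The 4 X-linked members (Rps4x, Rpl10, Rpl36a and Rpl39) had a median of 0.0645 and 0 calls by edgeR, DESeq2 or limma-voom, also at an unadjusted p under 0.05, beside 27 of 76 and 0.17 for the autosomal members. Of the 38 members whose exons overlap another annotated gene on either strand 18 rose (47.4%), and of the 42 without such overlap 9 rose (21.4%), with medians of 0.20 and 0.15. Among the 27 higher members, Rplp0, Rps7, Rps9, Rps16, Rpl41, Rps6, Rpl26, Rpl7 and Rps26 are the 9 without overlap.

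Genes that work with the ribosomal proteins were read from lists. Some ribosomal proteins and genes named as similar to them fall outside the naming rule. Of these, Fau, a 40S fusion protein, and Rack1, the signalling scaffold on the 40S head, rose, with log2 fold changes of 0.23 (adjusted p = 0.0463) and 0.21 (adjusted p = 0.0353). The groups of both were separate. Rpl7l1 and Rpl22l1 had 0.16 and 0.11 and did not pass. The shares of the lists that follow are set beside the 15.2% of all genes that rose and the 15.7% that fell. Of 19 other mRNAs of the TOP class 5 rose (26.3%) and 1 fell (5.26%), with a median of 0.17. Eef2, the translocation factor, was at 2801 ± 76.4 CPM in PBS and 3509 ± 147 with WGP (SD, n = 3 each, 0.32, adjusted p = 0.00431). Eif3k, Eif3h, Eif3f and Btf3 also rose, and Ybx1, an mRNA-packing protein, fell (-0.30, adjusted p = 0.0057).

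Ribosome assembly factors did not share the sign of the median. Of 53 tested, 4 rose (Bysl, Pes1, Utp14a and Rpf2) and 6 fell (Nop16, Wdr12, Tsr1, Nop56, Ppan and Ftsj3), with a median of -0.10. These shares, 7.55% and 11.3%, lie below those of all genes. Nop16, a nucleolar 60S factor, was at 24.5 ± 1.6 CPM in PBS and 15.2 ± 1.6 with WGP (-0.68, adjusted p = 0.00343), and Wdr12, which acts with Pes1 on the 60S, at 12.9 ± 1.99 and 6.297 ± 1.36 (-1.04, adjusted p = 0.00497). Of 8 chaperones of single ribosomal proteins 1 fell (12.5%, beside 15.7% of all genes), Grwd1 (-0.81, adjusted p = 0.0386). Of 14 genes of RNA polymerase I and its factors, which make rRNA, 0 passed by edgeR, DESeq2 or limma-voom and 1 had an unadjusted p under 0.05.

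A list of 15 genes covered mTORC1 signalling, S6 kinase and TOP mRNA control, together with the transcription factors Myc and Max. On it 5 rose, Max among them (33.3%), and 1 fell, Myc (6.67%). Larp1, which binds the TOP start, was at 209.5, 203 and 229 CPM in PBS and 294, 304 and 280.2 with WGP (0.45, adjusted p = 0.00111), and Eif4ebp2, an mTORC1-controlled brake on cap-dependent translation, at 214.8 ± 3.94 and 325 ± 4.204 (0.60, adjusted p = 0.000101). Max, Larp4 and Rps6kb2 rose by 0.47, 0.37 and 0.42. Myc, a transcription factor that drives many ribosome genes, was at 59.8, 64.6 and 55.7 CPM in PBS and 10.7, 24.4 and 15.3 with WGP (-1.83, adjusted p = 0.00433). Its groups were far apart. Of 33 initiation factors 8 rose (24.2%) and 2 fell (6.06%), with a median of 0.025. Eif3k, Eif3h and Eif3f are also on the TOP list. Of 8 genes listed for elongation 1 rose (Eef2, 12.5%) and 2 fell (Eef2k, -0.91, and Eef1e1, -0.64). Neither Eef2k, the kinase of Eef2, nor Eef1e1 is itself an elongation factor. Of 13 genes of ribosome quality control 2 rose, Nemf and Gtpbp1 (0.32 and 0.28), a share of 15.4%, about that of all genes.

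**Figure D5:**
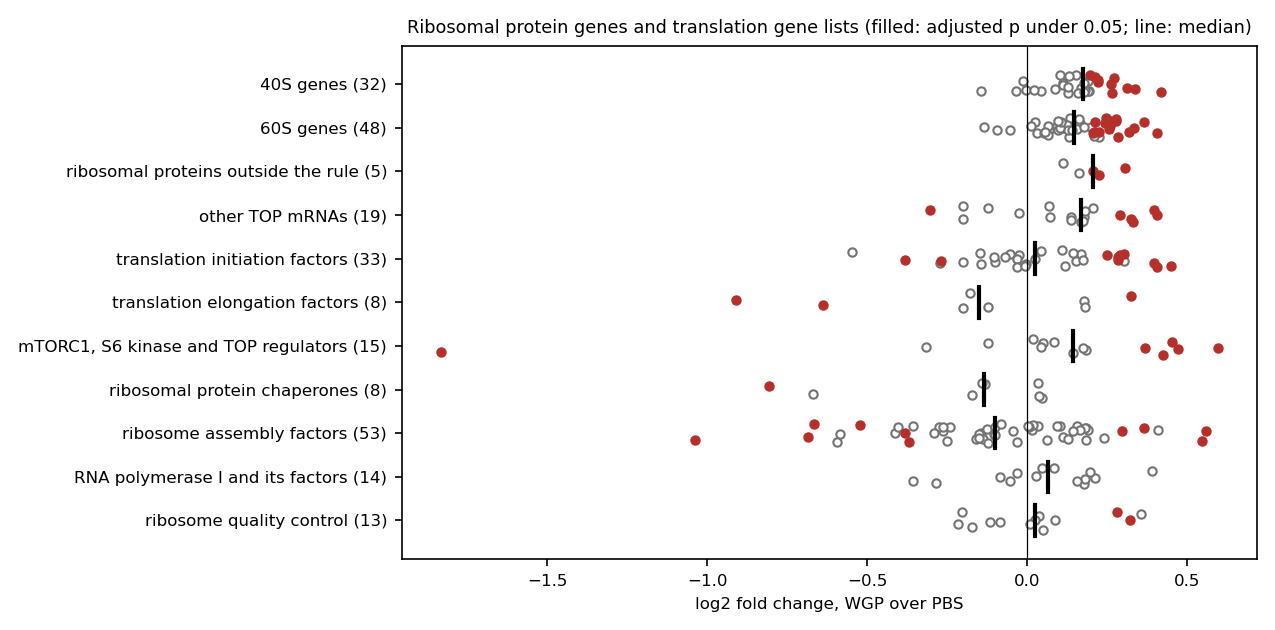
Log2 fold change, WGP over PBS (horizontal axis), of each tested gene of the 40S, the 60S and 9 lists of related genes, filled where the adjusted p was under 0.05, with the median as a bar. Of the 80 ribosomal protein genes 73 lie above 0 on the TMM scale (37 when scaled to their own sum), while the assembly factors spread from -1.04 to 0.56 around a median of -0.10.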

How the data were processed

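Gene counts of 6 libraries (3 PBS, 3 WGP) were deposited by the authors as raw whole-number counts per Ensembl gene. Per the submitters' processing notes, HTSeq 0.10.0, FastQC 0.10.1 and the builds mm10 and GRCm38 were used. The sources used here do not state the aligner, the annotation or the strand setting. Groups and replicate numbers came from the sample titles.

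GENCODE M21 (GRCm38) matched 21939 of 21965 identifiers and gave symbols, coordinates and transcript lengths, taking 1 coding transcript per gene (the shortest of the best-ranked). WGP was compared with PBS on all genes in edgeR 4.0.16 (R 4.3.3) after filterByExpr and TMM, by a two-sided quasi-likelihood F test from a robust glmQLFit, with p-values adjusted by Benjamini-Hochberg over 12305 genes and a threshold of 0.05. The SE is the size of the log2 fold change divided by the square root of F, and the biological coefficient of variation was 0.181. "Rose" and "fell" mean past this threshold. CPM are TMM-normalised. Totals of 18254678 to 20346517 counts per library set the counting error, and intervals cover 3 libraries a group. An exact test of 3 values against 3 cannot reach a p below 0.1, so none was used. Chi-square per degree of freedom between replicates was 14.1 to 26.2, so no library repeated another.

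The members and gene lists were chosen with earlier results of these data known. Genes named are every member past the threshold, the 5 highest and 5 lowest per kb, the 5 with the largest spread within groups, the stalk, 5S, tunnel and variant genes, some members with known roles, and up to 4 genes of each related list by smallest p. Rps2, Rpl14, Rps3, Rps14, Rps25 and Rpl7a, and list genes that complete a count, were named after their values were seen. Alternatives were other scalings (DESeq2 size factors, upper quartile, library sizes alone, TMM without the members), other low-count filters, DESeq2 1.42.0, limma-voom (limma 3.58.1), no robust estimation, each library left out, a replicate block, removal of length and GC trends, and a Y-linked covariate. Promoter sequences are from RefSeq (GRCm38.p6). Rps4l was not analysed here, and the values of some genes the rule would name are not reported here.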

Additional observations from a re-analysis of the deposited data

How the results depend on the processing

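Every alternative gave positive medians for both subunits, except scaling to the ribosomal protein sum, which was added after the data were seen. The medians were 0.11 (40S) and 0.086 (60S) with upper quartile scaling, 0.072 and 0.045 with library sizes alone, 0.0415 and 0.0503 with length and GC trends removed, and -0.0013 and -0.0274 on the ribosomal protein sum. With the Y-linked level as covariate, a level that itself separates the groups, the 60S median was 0.22. Leaving out 1 library gave 0.13 to 0.21 for the 40S and 0.13 to 0.20 for the 60S. Members higher, 27 in the main analysis, numbered 10 with upper quartile scaling, 6 with library sizes alone, 8 with length and GC trends removed, 8 without PBS libraries 1 and 3, 2 on the ribosomal protein sum and 7 to 35 without 1 library. Members lower numbered 2 with library sizes alone, 1 with length and GC trends removed, 5 on the ribosomal protein sum and 0 without any 1 library. A smaller share of members than of all genes was called higher with library sizes alone and with length and GC trends removed. The same held without PBS library 1 or 2 and on the ribosomal protein sum. Genes changed numbered 2491 to 3717 without 1 library (fewest without PBS library 1) and 1820 without PBS libraries 1 and 3, against 3809. Of all genes called, 49.2% were higher by TMM, and 33.4% with library sizes alone and 24.0% on the ribosomal protein sum. The causes of these differences were not tested.

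Same-numbered PBS and WGP libraries did not deviate together (correlations of -0.063, -0.081 and -0.046), and no library correlated best with its own number. Such values from 3 libraries a group cannot show whether the numbers mark pairs. With the replicate block 21 members were higher and 3185 genes changed. With the replicate block and length and GC trends removed, 8 members were higher and 1 lower, with medians of 0.0416 and 0.0472. Rps28 reversed to -0.0047 with the trends removed and to -0.0054 with the block as well. The difference in the share of counts, 0.16 percentage points, became 0.50 when counts were divided by transcript length and was 0.11 to 0.23 without 1 library. That in the 40S share was -0.24 to 0.049 without 1 library.

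Over the 80 members and the 20 alternative analyses other than the ribosomal protein sum, 1389 values kept their direction and side of the threshold or stayed uncalled, 183 lost the call, 26 gained one and 2 reversed. On the ribosomal protein sum 50 values did so, 25 lost the call and 5 gained one, and 37 members lay above 0, against 73. With 3 libraries a group and changes near 1.12-fold, a member missing the threshold is not shown to be unchanged. The share of ribosomal protein mRNA per cell cannot be read from these counts.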
